A study of Bos grunniens with 6 samples.

Results

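The miRNAs bta-miR-320a, bta-miR-484, bta-miR-877 and bta-miR-451, named here without the cattle prefix, reach their mature form without one of the usual RNA-cutting enzymes, and their levels were compared between 2 cultured cell types of the yak hair follicle. Members were chosen by miRNA name without the arm, and 4 of the 5 names in the rule matched an entry among the 2853 of the deposited table. The fifth, bta-miR-320b, was not analysed here. Small RNA of yak (Bos grunniens) skin cells was sequenced from dermal papilla cells, which are mesenchymal and lie in the bulb of the follicle, and from hair matrix cells, the dividing epithelium around them that builds the hair. There were 3 libraries per cell type. The labels call them biological replicates and name no animals or cultures, so the p-values rest on the spread among libraries, which may be technical. Both cell types were wild type (WT) and were isolated and grown in DMEM/F12 with 10% FBS (fetal bovine serum), IGF1 at 10 ng/mL, EGF at 20 ng/mL and antibiotics. The series title gives the question as the difference in miRNA profile between these cells. In bulk RNA, fewer cells of a type and less RNA per cell cannot be told apart.

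Most miRNAs are cut first in the nucleus by Drosha with its partner DGCR8, and then in the cytoplasm by Dicer. miR-320a and miR-484 come from short hairpins that are made by transcription itself and need Dicer but not Drosha. miR-877 is a mirtron, an intron (of ABCF1) that folds into a hairpin after splicing and so also bypasses Drosha. miR-451 is cut by Drosha, but its hairpin is too short for Dicer, and it is sliced by Argonaute 2 (AGO2) and trimmed instead. It is best known from red blood cells, where it shares a transcript with miR-144.

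The mature sequences are shown because the miRNAs differ in their ends and base composition. They are given as deposited, in DNA letters, with the seed (bases 2 to 8, which pair with target mRNAs) in capitals.
miR-320a: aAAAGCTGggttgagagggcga
miR-484: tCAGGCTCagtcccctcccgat
miR-877: gTAGAGGAgatggcgcaggg
miR-451: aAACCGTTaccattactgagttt
No seed was shared between any of these miRNAs, and the longest run of bases common to any pair was 5, in miR-320a and miR-877. No other cattle-named entry had any of these seeds, and 1 predicted entry had that of miR-484, with means of 0.0279 (dermal papilla) and 0.0955 RPM (hair matrix). RPM are the reads of an entry scaled to 1000000 reads of the library. No entry aligned to any of the 4 over at least 18 bases with at most 1 mismatch, so no listed sequence was close enough to share their reads by this criterion.

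Base composition differed widely among the 4 miRNAs. miR-877 was 80.0% purine, the highest share among the 413 tested entries with cattle names. miR-320a, at 77.3% purine, was exceeded by 1 of them and tied with 1. In contrast, miR-484 was 68.2% pyrimidine, a share exceeded by 21 of the 413, whose median was 50.0%. miR-877 was among the 8 of the 413 (1.94%) that began with GT, the bases that start most introns. It was also the shortest, at 20 bases, a length held by 4.60% of them. miR-451 was the longest, at 23 bases, and the poorest in G and C, at 34.8% against a median of 45.5%.

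All 4 miRNAs had higher levels in dermal papilla cells, by 1.79-fold to 2.00-fold in mean RPM, and in each of them every dermal papilla library lay above every hair matrix library. Summed, they stood at 748 ± 8.36 RPM in dermal papilla and 398 ± 1.88 RPM in hair matrix libraries (SD, n = 3). This was 0.103% and 0.0549% of the reads on listed entries. With limma on log2(RPM + 1), a scale that understates the change of low miRNAs, all 4 had an adjusted p under 0.05 with higher levels in dermal papilla cells, as did 42.1% of the 503 entries tested. None of the 4 reached the 2-fold minimum for a call, which 25.2% of tested entries met in this direction and 19.9% in the other. At an unadjusted p under 0.05 the limma count was 4, against 42.1% of tested entries in this direction. edgeR called 0 of the 4 and 28.4% of tested entries higher in dermal papilla cells. DESeq2 called 2, miR-451 and miR-484, and 30.0% of tested entries. Groups without overlap and higher in dermal papilla cells were found for 41.7% of tested entries, so the lack of overlap was frequent among all miRNAs. All 4 were above 1 RPM in all 6 libraries and passed the filter on low values in both cell types.

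**Figure D1:**
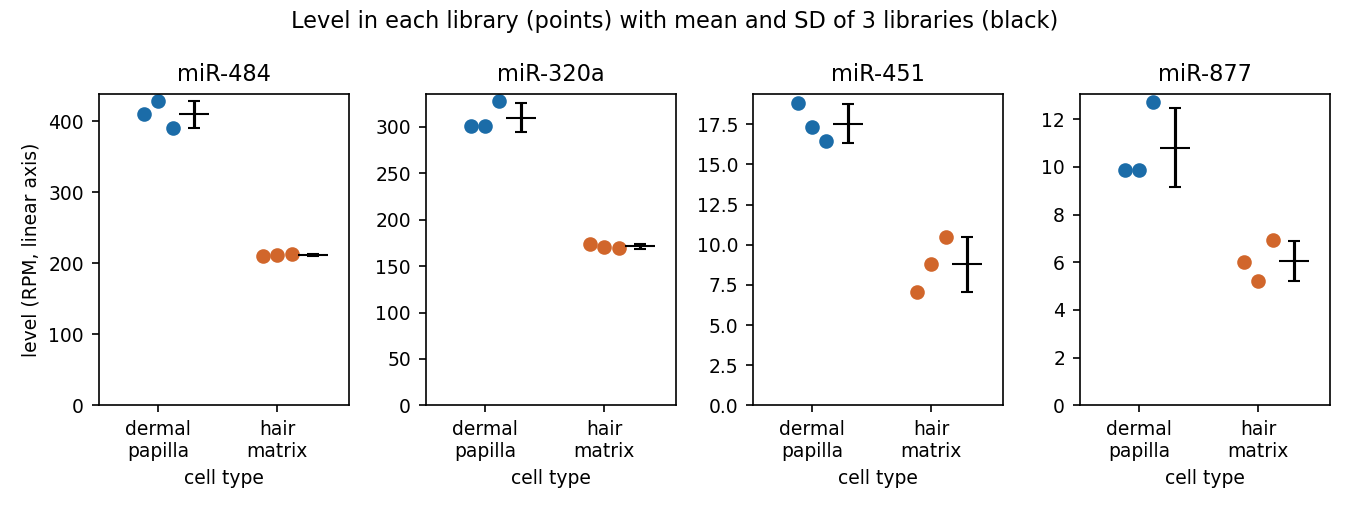
Level of each miRNA in RPM (linear axes from 0) in the 3 dermal papilla libraries (blue) and 3 hair matrix libraries (orange), with the mean and SD of 3 libraries in black. In each panel all dermal papilla libraries lie above all hair matrix libraries, by 1.79-fold to 2.00-fold in the means.

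miR-484, a short-hairpin miRNA, was the most abundant of the set. Its level in dermal papilla cells was 409.8, 428 and 391 RPM, and in hair matrix cells 211, 212 and 214 RPM. The hair matrix libraries were nearly equal and all well below the lowest dermal papilla library. Means were 409.5 ± 18.6 and 212 ± 1.48 RPM (SD, n = 3), a 1.93-fold difference. The log2 change was 0.94 ± 0.050 (SE), with a 95% interval of 0.83 to 1.06 that includes a 2-fold change (limma adjusted p = 1.35e-06). With DESeq2 the change was 1.01 and passed the 2-fold minimum.

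miR-320a, also made from a short hairpin, followed closely. It was at 301, 301 and 328 RPM in the dermal papilla libraries and at 174, 170.5 and 169 RPM in the hair matrix libraries. Dermal papilla replicate 3 was the high library, whereas it was the low one of the 3 for miR-484. Means were 310.0 ± 15.6 and 171 ± 2.48 RPM (SD, n = 3), a 1.81-fold difference. The log2 change of 0.85 ± 0.053 (SE) had an interval of 0.73 to 0.98, which lies below 2-fold (limma adjusted p = 3.64e-06). miR-320a was the only one of the 4 whose limma interval did not reach 2-fold. With DESeq2 its change was larger, at 0.92 ± 0.075 (SE).

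miR-877, the mirtron, was the lowest of the set. Its levels were 9.87, 9.86 and 12.7 RPM in dermal papilla libraries, against 5.99, 5.23 and 6.91 RPM in those of hair matrix. These values rest on 128 to 308 reads per library, and the lowest dermal papilla library stood only 1.43 times above the highest hair matrix library. The means of 10.8 ± 1.64 and 6.05 ± 0.845 RPM (SD, n = 3) differed 1.79-fold. On the log2 scale the change was 0.74 ± 0.133 (SE), with an interval of 0.43 to 1.06 (limma adjusted p = 0.00133). After quantile normalization, which gives every library the same distribution of values, it was 0.30 and no longer passed (adjusted p = 0.0801).

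miR-451, the Dicer-independent miRNA, had the largest ratio of means and the widest spread in hair matrix cells. The dermal papilla libraries held 18.8, 17.3 and 16.5 RPM and the hair matrix libraries 7.05, 8.78 and 10.5 RPM. The groups did not overlap, and the hair matrix libraries differed among themselves by 19.7% (coefficient of variation), against 6.83% in dermal papilla cells. Means were 17.5 ± 1.197 and 8.77 ± 1.73 RPM (SD, n = 3), a 2.00-fold difference. The log2 change was 0.94 ± 0.137 (SE) with an interval of 0.61 to 1.26 (limma adjusted p = 4.37e-04). Without hair matrix replicate 3 it was 1.06 and was called, and DESeq2 called it at 1.07, whereas after quantile normalization it was 0.24 (adjusted p = 0.237).

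The spread between libraries was set against the counting error of the reads. In hair matrix cells the spread of miR-484 (0.696%) and miR-320a (1.45%) was no wider than the counting error of their mean reads, 1.39% and 1.55%. In dermal papilla cells the spread of the same miRNAs was 4.54% and 5.03%, above counting errors of 1.01% and 1.16%. For miR-451 and miR-877 the spread exceeded counting error in both cell types, which was 4.87% to 8.24% for these less abundant miRNAs.

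The order of levels was miR-484, miR-320a, miR-451 and miR-877 in all 6 libraries, although RPM of different miRNAs also depend on how well each is ligated. Among the 503 tested entries they ranked 72, 87, 199 and 224 by mean level in dermal papilla cells, and 85, 92, 208 and 233 in hair matrix cells. Between neighbours, miR-320a stood at 0.703 to 0.839 of the RPM of miR-484, and miR-451 at 1.18 to 1.91 times that of miR-877, over the libraries.

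By size of change the 4 lay close together in the upper middle of the table. Their median log2 change was 0.89, whereas all tested entries had a median of -0.01 and an upper quartile of 1.04. Ordered from the most dermal papilla-enriched entry down, miR-484 ranked 131, miR-451 ranked 132, miR-320a ranked 142 and miR-877 ranked 156 of 503. A further comparison counts entries with an adjusted p under 0.05 that were higher in dermal papilla cells by less than 2-fold, the range in which all 4 fell. They made up 16.9% of those tested. The range is the one in which the 4 fell with limma, so their place in it is given and the share is no test of them.

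**Figure D2:**
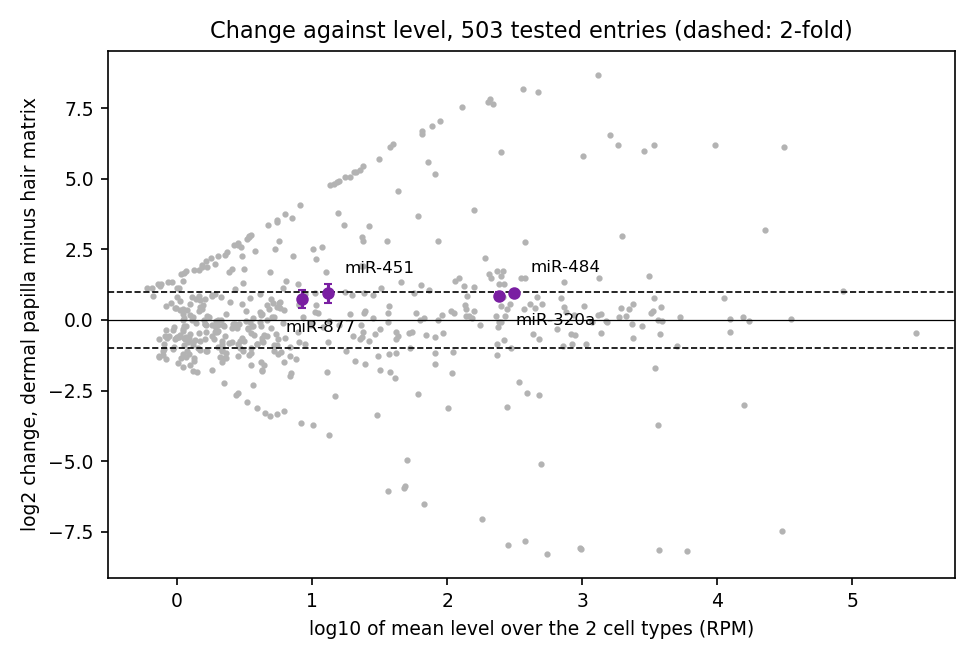
Log2 change (dermal papilla minus hair matrix, on log2(RPM + 1)) against log10 of the mean level in RPM for 503 tested entries (grey), with miR-484, miR-320a, miR-451 and miR-877 in purple and their 95% intervals as bars. Dashed lines mark 2-fold. The 4 miRNAs lie between 0.74 and 0.94, under the upper line.

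Ratios within a library do not depend on how libraries are scaled, and they were compared for each pair of the 4 miRNAs. The log2 ratio of miR-320a to miR-484 was -0.44, -0.51 and -0.25 in dermal papilla cells and -0.28, -0.32 and -0.34 in hair matrix cells. The hair matrix values fell inside the dermal papilla range, and the difference of -0.09 was not larger than the spread (exact two-sided permutation p = 0.4, where 3 against 3 cannot go below 0.1). The matching test of miR-320a against miR-320b could not be run, so no adjustment was needed. For the 6 pairs among the 4 miRNAs, the cell types overlapped in every ratio. The differences lay between -0.16, for miR-320a to miR-451, and 0.18, for miR-451 to miR-877. Overlap at n = 3 does not show that the miRNAs changed alike, since single libraries of 1 cell type differed by up to 0.62 in the ratio of miR-320a to miR-451.

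**Figure D3:**
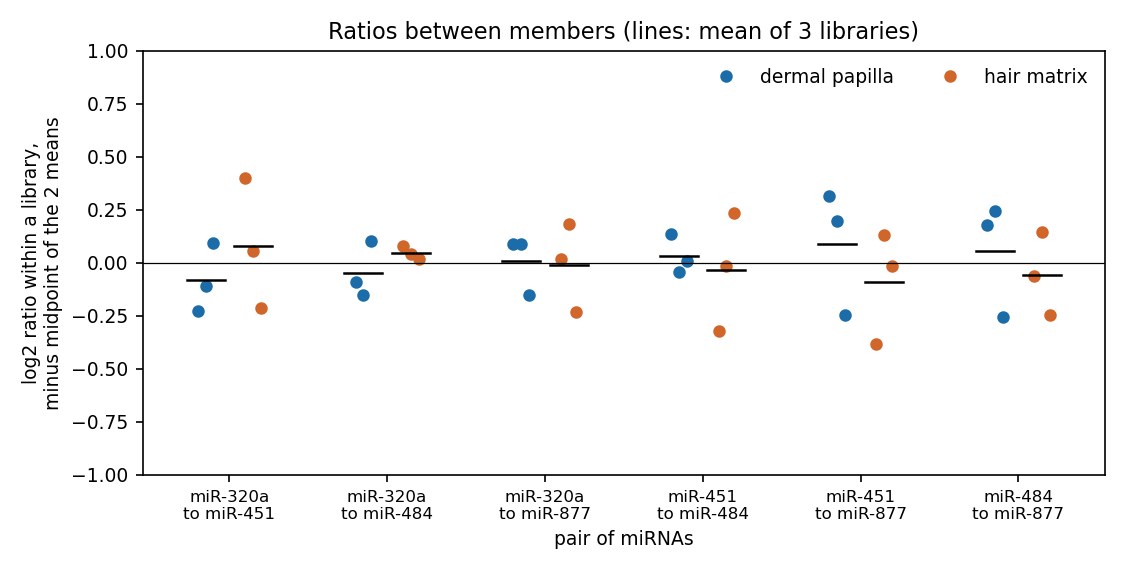
Log2 ratio of each pair of miRNAs within a library, minus the midpoint of the means of both cell types, for dermal papilla (blue) and hair matrix (orange) libraries. Lines are means of 3 libraries. In all 6 pairs the cell types overlap.

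The profiles most like these were sought among 219 other cattle-named entries with a mean of at least 10 RPM, by the root mean square difference of centred log2(RPM + 1) over the 6 libraries. miR-181a was nearest to miR-320a (0.0376), with means of 591 and 337 RPM in dermal papilla and hair matrix cells, and miR-502a was next (0.0569). For miR-484 these were miR-362-5p (0.0479), at 74.7 and 38.6 RPM, and let-7i (0.0607). miR-148b (0.117) and miR-181a (0.131) were nearest to miR-877, and miR-362-5p (0.139) and miR-181d (0.149) to miR-451. The nearest of the set to miR-320a was miR-484, at 0.0911, which is farther than either of the entries named for miR-320a. With 6 libraries in 2 groups, this measure mostly reads the size of the change between cell types.

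The labelled cell types were checked against other miRNAs. Epithelial markers (miR-200a, miR-200b, miR-200c, miR-141, miR-429 and miR-205) summed to 82.9 to 108 RPM in dermal papilla libraries and 22064 to 22261 RPM in hair matrix libraries. The mesenchymal miR-143, miR-145, miR-199a, miR-199b and miR-214 summed to 88413 to 91201 and 1204 to 1421 RPM. The endothelial miR-126 arms summed to 2.57 to 4.70 RPM over all libraries. Muscle markers were at 58.4 to 72.9 RPM in dermal papilla and 40.9 to 42.6 RPM in hair matrix libraries, mostly from miR-1 and, in hair matrix cells, miR-499. Libraries held 23904796 to 24693655 reads, of which 71.7% to 73.5% fell on listed entries, and none stood apart in these totals.

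The other red blood cell miRNAs were read 6 to 34 times per library, and miR-451 was read 174 to 450 times. miR-144, the transcript partner of miR-451, was read 16, 8 and 7 times in dermal papilla libraries and 11, 11 and 6 times in hair matrix libraries. Its means were 0.431 ± 0.208 and 0.382 ± 0.114 RPM (SD, n = 3), and the cell types overlapped. The ratio of miR-451 to miR-144 was 28.1 to 57.0 in dermal papilla and 15.8 to 42.0 in hair matrix libraries. miR-486, another miRNA of red blood cells, was at 0.999 ± 0.385 and 0.520 ± 0.205 RPM.

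Of the 6 entries of 5 blood markers (miR-144, miR-486, miR-142, miR-223 and miR-150), which summed to 3.13 to 4.14 RPM in dermal papilla and 1.39 to 2.07 RPM in hair matrix libraries, 1 was tested and 0 were called. That entry was miR-150, a miRNA of lymphocytes, at 1.54 ± 0.278 and 0.465 ± 0.197 RPM (log2 change 0.80, limma adjusted p = 8.53e-04). It reached 1 RPM only in dermal papilla libraries, so it passed the filter through the cell type in which it was high. Its p-value is therefore no support for a difference. The myeloid miR-223 was at 0.652 ± 0.0813 and 0.410 ± 0.0353 RPM. miR-142-3p, which marks blood cells in general, had 0 reads in all dermal papilla libraries, which allows up to 0.124 to 0.125 RPM for counting error only, and 1 read in 1 hair matrix library. The liver miRNA miR-122, listed because it circulates in serum, was at 3.32 ± 1.11 and 3.91 ± 0.349 RPM with overlapping groups (log2 change -0.22, adjusted p = 0.314). The blood marker sum was higher in the cell type in which miR-451 was higher, and the marker that differed most in mean RPM was miR-150, of lymphocytes. What blood cells add to the miR-451 values was not tested.

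Other miRNAs made by unusual routes gave few further values. Of 10 other mirtron names, only miR-1224 matched an entry, at 3 to 11 reads per library and means of 0.153 ± 0.0234 RPM in dermal papilla and 0.288 ± 0.147 RPM in hair matrix cells, and it was not tested. miRNAs cut from small nucleolar RNAs, which can also bypass Drosha, matched 5 entries, of which 3 were tested. All 3 had a limma adjusted p under 0.05 with higher levels in dermal papilla cells, and 1, miR-664b, was called. For miR-1248 this is no support, since it passed the filter through dermal papilla cells, where it was high. Over the 503 tested entries these shares were 42.1% and 25.2%, and 3 entries are too few to set against them. The median log2 change of the 3 was 0.91, which is the value of miR-1248 itself, beside -0.01 for all tested entries.

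miR-664b was at 8.83, 8.56 and 11.8 RPM in dermal papilla and 2.59, 3.02 and 3.87 RPM in hair matrix libraries (log2 change 1.36 ± 0.157 SE, limma adjusted p = 1.18e-04). miR-1248 was at 2.80 ± 0.911 and 0.996 ± 0.183 RPM (log2 change 0.91, limma adjusted p = 0.00210). One hair matrix library was at 0.79 RPM, so miR-1248 met the filter only with its dermal papilla libraries, and its p-value is no support for a difference. The abundant miR-1839 differed least, at 176 ± 5.21 and 141 ± 3.56 RPM (log2 change 0.32, adjusted p = 7.09e-04). miR-664a and miR-1291 stayed below 1 RPM in all libraries and were not tested.

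**Figure D4:**
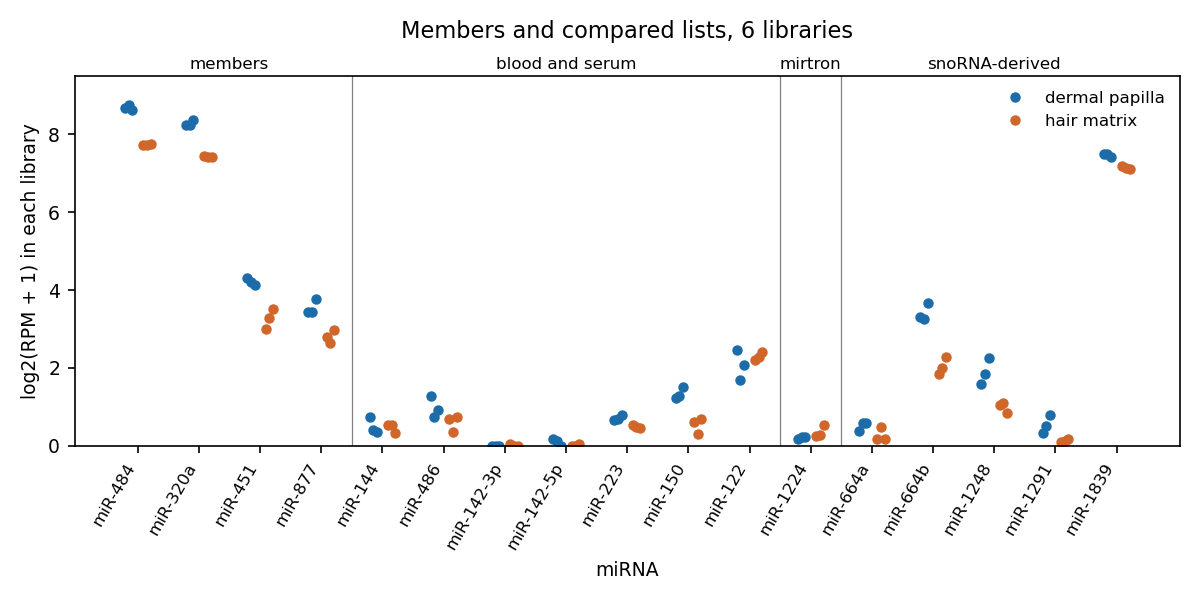
Log2(RPM + 1) in each dermal papilla (blue) and hair matrix (orange) library for the 4 miRNAs and the compared lists. miR-451 stands well above miR-144, which is under 1 RPM in all 6 libraries, and of the miRNAs from small nucleolar RNAs, miR-1839 is the most abundant.

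The size of the change depended on the scaling, and its direction did not under any alternative run. Centring each library on its median moved the median log2 change of all tested entries from -0.01 to -0.29, and the changes of miR-484, miR-320a, miR-451 and miR-877 to 0.67, 0.58, 0.66 and 0.47. Such centring shifts all miRNAs of a library by the same amount, so changes relative to the median of all tested entries are the same by construction, at 0.96, 0.86, 0.95 and 0.76. Quantile normalization gave 0.50, 0.31, 0.24 and 0.30, the smallest change of each over the alternatives run. Relative to the median it gave 0.73, 0.54, 0.47 and 0.53.

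**Figure D5:**
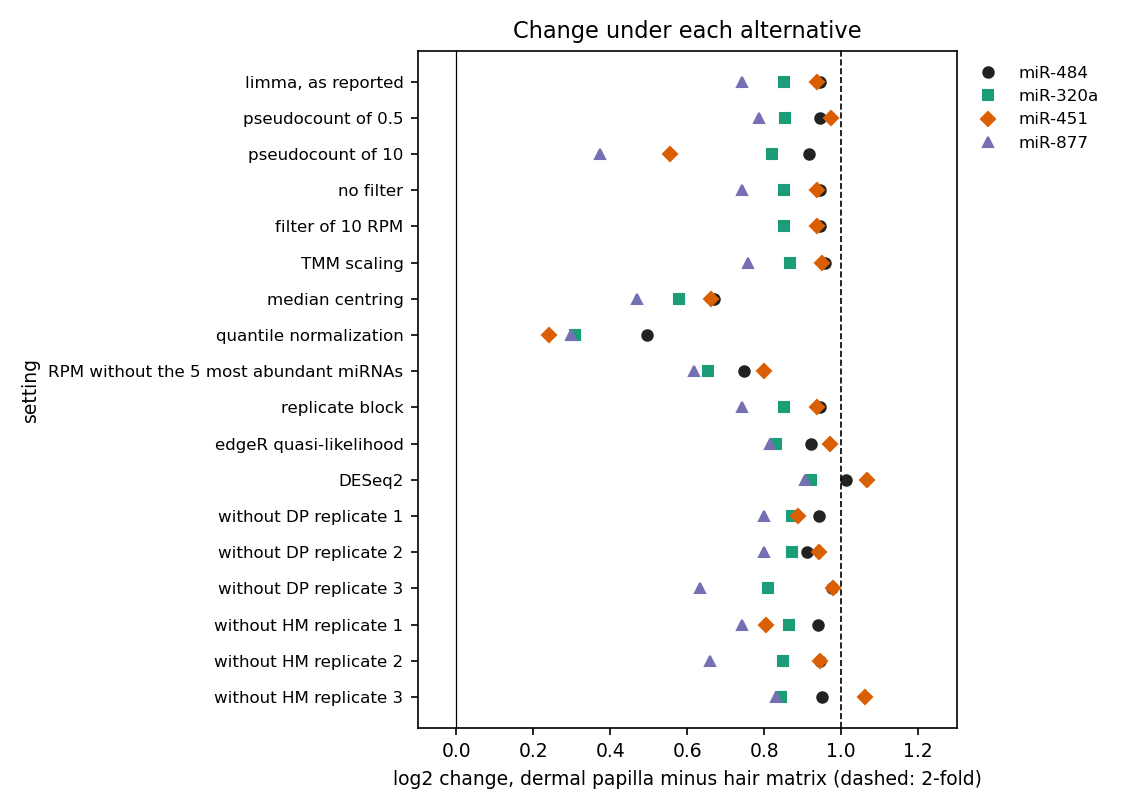
Log2 change of each miRNA (dermal papilla minus hair matrix) under the reported limma fit and each alternative. The dashed line marks 2-fold. Every point lies above 0, from 0.24 to 1.07, and 3 points lie above the 2-fold line.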

How the data were processed

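The deposited table gives small-RNA levels of 2853 entries (757 with cattle names, 2096 predicted) in 3 dermal papilla and 3 hair matrix libraries made from 1 µg of RNA with a TruSeq small RNA kit, per the labels' protocols. The authors call the values TPM. They are RPM, since 100% of the deposited RPM values were whole multiples of 1 step per library within 0.001 read, from which whole reads were recovered. Trimmomatic, HISAT2 2.2.1.0 and DESeq 1.20.0 are named without roles, per the submitters' processing notes. Which build and which set of miRNAs the authors mapped to, and how they handled reads with several matches, was not given in the sources used here.

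Of all entries, 503 reached 1 RPM in 3 or more libraries and were tested. limma 3.58.1 under R 4.3.3 was run on log2(RPM + 1) with a single term, cell type, and a trend of variance with mean, and p-values were adjusted by Benjamini-Hochberg over all 503. A miRNA was called when its adjusted p was below 0.05 and its change reached 2-fold. Folds in the text divide mean RPM by mean RPM. The count tests (edgeR 4.0.16, DESeq2 1.42.0) used the recovered reads, and edgeR called 143 entries higher in dermal papilla and 141 in hair matrix cells. The limma fit was also tested on simulated data. No pair of libraries of 1 cell type agreed within counting noise (chi-square per degree of freedom 26.9 to 82.8), which does not show that they came from separate RNA. All 6 were counted separately because the labels name them as biological replicates. All 6 value columns were used.

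The members, lists and tests were chosen with earlier results of these data known. Named miRNAs are the members, every entry of the blood and serum, mirtron and small nucleolar RNA lists, the cell type markers, entries that share a seed or sequence with a member, and the 2 profiles nearest each member. Alternatives were pseudocounts, filters, scalings, a replicate block, edgeR, DESeq2 and the removal of single libraries while the tested entries stayed the same. The count with no fold minimum was added after the data were seen.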

Additional observations from a re-analysis of the deposited data

How the results depend on the processing

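The number of the 4 miRNAs called higher in dermal papilla cells was 0 with limma, 2 with DESeq2, 4 with no fold minimum, and 0 to 1 when single libraries were left out. The library behind the 1 call was hair matrix replicate 3, without which miR-451 was called at 1.06. No alternative called any of them higher in hair matrix cells. Over 67 values from alternatives for single miRNAs, all 67 kept the direction and 65 kept an adjusted p under 0.05. The other two were miR-451 and miR-877 after quantile normalization. The log2 changes ranged from 0.31 to 0.92 for miR-320a, 0.50 to 1.01 for miR-484, 0.30 to 0.91 for miR-877 and 0.24 to 1.07 for miR-451. With a pseudocount of 10 the low miRNAs miR-451 and miR-877 had changes of 0.56 and 0.37. With a filter of 10 RPM miR-877 was not tested. With the replicate number as a block, 0 were called in either direction, and the adjusted p was at most 0.00214. Same-numbered libraries deviated with correlations of -0.27 to 0.14, and 2 of 6 correlated best with their own number. No pairing by number was seen, but 3 libraries per cell type are too few to exclude one.

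The split of all calls, 127 and 100 with limma, became 109 and 137 after median centring, 112 and 128 after quantile normalization, 143 and 141 with edgeR, 151 and 135 with DESeq2, and 155 and 227 without the 5 most abundant miRNAs, where 764 entries were tested. With a pseudocount of 10 it was 77 and 40, with a filter of 10 RPM 80 and 47, and the count with no fold minimum was 212 and 204. The difference in the ratio of miR-320a to miR-484 was -0.09, and it lay between -0.17, without dermal papilla replicate 3, and -0.04, without dermal papilla replicate 2, when single libraries were left out. The planned ratio and sum with miR-320b were not run. miR-144, miR-142 and miR-1224 rest on 16 reads or fewer per library.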
